A study of Arabidopsis thaliana with 6 samples.

Results

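The comparison described here sets flower buds from day 4 of a soil drought against buds from day 3, in Arabidopsis thaliana plants that carry the dreb1a mutation (stock CS872453) in the Col-0 ecotype. It was chosen by the day in the sample titles and takes 4 of the 6 samples of the series, 2 from day 4 and 2 from day 3. The other 2, from day 5, entered the estimate of the spread and are given for orientation. Day 4 samples came from plants aged 29 days and day 3 samples from plants aged 28 days.

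All plants had been watered for 24 days, until the main stem was about 1 cm high, and water was then withheld. About 80 hours later, on what the labels count as day 3, the soil held close to 35% of its water capacity, and daily watering kept it there. Day 4 is therefore 1 further day at low but steady soil moisture, and the comparison asks which transcripts changed over that day. Total RNA of the unopened buds was hybridised to Affymetrix ATH1 arrays, which measure each transcript with a group of short probes called a probe set, and each sample had its own array. Values are log2 intensities, so a difference of 1 is a 2-fold difference.

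Several features of the design bound what the values can say. The mutant is a single line, and buds of the wild type or of watered plants were not analysed here. Nothing below is therefore a difference between genotypes or between dry and watered plants. Plant age and day of drought moved together and cannot be told apart, and the labels give no hour of sampling. The labels do not state whether the replicates are separate plants, and the p-values measure only how far these samples scatter, which may be a technical spread. Buds hold many cell types, and fewer cells of a type cannot be told apart from less RNA per cell. No probe set used here was named for DREB1A, so the mutation rests on the labels.

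The tissue was checked against marker genes. Of 7 anther and tapetum markers 4 were measured, and of 20 flower bud markers 6 were. AT5G07230, a member of the anther and tapetum marker list that the files give by locus alone, stood at 11.82 ± 0.06 on day 4 and 11.61 ± 0.08 on day 3 (SD, n = 2 each). AMS, a transcription factor of the tapetum, the layer that feeds developing pollen, averaged 9.45 on day 4 and 9.56 on day 3, and EMS1, a receptor kinase needed to form the tapetum, averaged 9.12 on day 4 and 9.16 on day 3. The stem cell signal CLV3, made by a small group of cells at the shoot tip, averaged 4.19 on day 4 and 3.87 on day 3, and the control probe sets for the bacterial trp transcript averaged 3.73 on day 4 and 3.60 on day 3. No member of the seed, root and leaf marker lists was named on a single probe set used here, so those tissues could not be checked. Of the flower bud markers other than CLV3, SPT averaged 7.98 on day 4 and 8.03 on day 3, and INO 6.74 and 6.84. JAG averaged 5.42 on day 4 and 5.87 on day 3, and UFO 4.89 and 4.54. ALC read 9.53 and 9.68 on day 4, against 9.17 and 8.83 on day 3. The remaining anther and tapetum marker, SPL, averaged 7.62 on day 4 and 7.70 on day 3. AT5G07230, AMS, EMS1, SPL, ALC, SPT and INO were well above the trp controls. JAG and UFO were nearer to these controls, and CLV3 was close to them.

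Plants that run short of water accumulate abscisic acid, a hormone that closes stomata and switches on genes for protective proteins. Among those proteins are the late embryogenesis abundant (LEA) proteins and dehydrins, which are also made as seeds dry. DREB1A is a transcription factor that binds the dehydration-responsive element, a short promoter sequence found in many cold- and drought-induced genes. Flower buds import their sugar, so transporters, starch enzymes and the proteins that loosen cell walls all take part in its growth.

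With a threshold of 0.05 on limma's adjusted p, 564 of 22746 tested probe sets were higher on day 4 and 561 were lower. That is 2.48% and 2.47% of those tested, and 4.95% together. A typical change was small. The median log2 change was 0.55 among rises and -0.57 among falls, and 93 probe sets (0.409%) changed at least 2-fold, 52 up and 41 down. At least 4-fold changes were seen for 7 rises and 3 falls. The day 4 and day 3 arrays did not overlap for any of the 1125 calls, but they also did not overlap for 50.0% of all probe sets tested, so separation alone marks nothing. Of the calls, 597 could be given the name of exactly 1 gene, 304 that rose and 293 that fell. The other 528 include the largest fall of all (-3.05) and a rise of 2.85, and they stay without a gene name here.

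**Figure D1:**
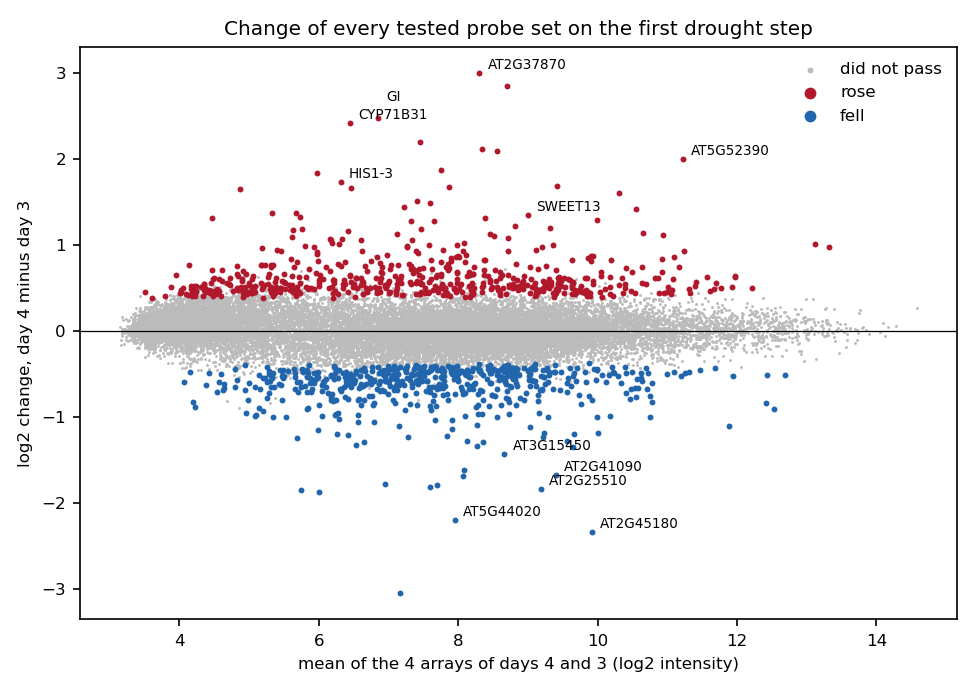
Each point is 1 of the 22746 probe sets, with the mean log2 intensity of the 4 arrays of days 4 and 3 on the horizontal axis and the log2 change, day 4 minus day 3, on the vertical axis. The 564 red points rose and the 561 blue points fell, and rises and falls of more than 1 are spread over low, middle and high intensities.

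Calls were not spread evenly over intensity. Probe sets were split by mean intensity into 4 groups of equal size. In the dimmest group 77 rose and 19 fell, or 1.69% of its probe sets. In the next group 207 rose and 239 fell (7.84%), in the one after it 134 rose and 185 fell (5.61%), and in the brightest 146 rose and 118 fell (4.64%). The dimmest group, with means from 3.15 to 5.00, reaches down to the level of the trp controls.

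The number of arrays limits how far single calls can be trusted. Replicate arrays differed by a median of 0.13 on day 4 and 0.11 on day 3, while a day 4 and a day 3 array differed by a median of 0.14 to 0.16. With day 4 replicate 1 left out, 1033 probe sets passed, but without day 4 replicate 2 only 392 did, without day 3 replicate 1 only 227 and without day 3 replicate 2 only 404. In such a fit the lone array of a day is assumed to vary like the others. Which probe sets passed also changed. Without day 4 replicate 1 many of the calls made with all arrays were lost, and others took their place. The calls that passed with all arrays and also without any 1 of these 4 numbered 171, of which 82 rose and 89 fell, and 83 of them carry the name of 1 gene. They are called the stable calls below, and a gene that rose or fell is one of them unless the text says which array its call depended on.

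**Figure D2:**
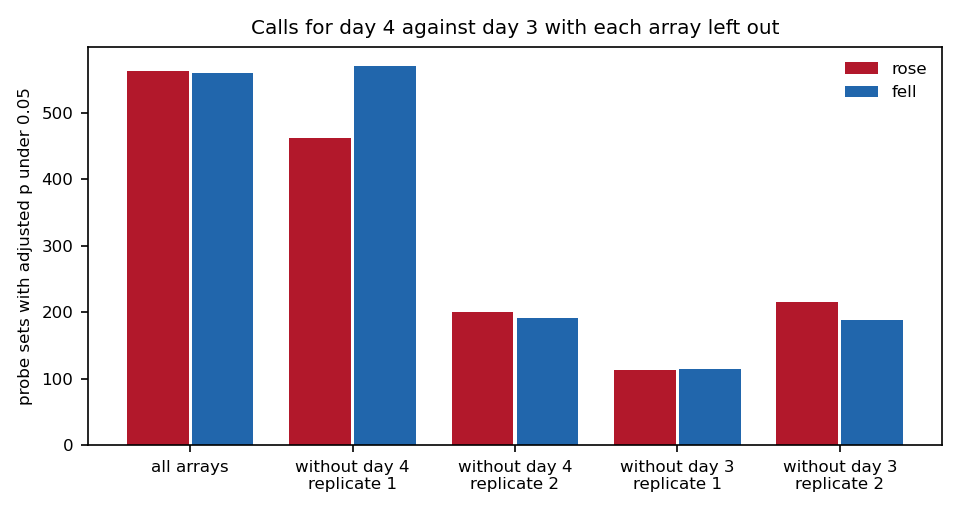
Bars give the number of probe sets that rose (red) or fell (blue) between days at an adjusted p under 0.05, with all arrays and with each array of days 4 and 3 left out. All arrays gave 564 rises and 561 falls, and the fit without day 3 replicate 1 gave 113 and 114.

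The largest change with a gene name was that of AT2G37870. For this and other genes that the files and the RefSeq table give by locus alone, no role is given here. Its arrays read 9.47 and 10.13 on day 4, against 6.58 and 7.03 on day 3. Both day 4 arrays lay well above both day 3 arrays, and the rise was 3.00 on the log2 scale, or 8.00-fold (SE 0.20, adjusted p = 2.73e-05). On day 5 its mean was 10.34.

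GI (AT1G22770), GIGANTEA, is a clock protein whose transcript cycles through the day and which links day length to flowering. It read 8.12 and 8.07 on day 4, against 5.63 and 5.59 on day 3. The replicates of each day nearly coincided while the days were far apart, and the rise of 2.48 had the smallest adjusted p among the named genes (SE 0.10, adjusted p = 5.18e-07). Its day 5 mean was 9.28, higher again. GI was the 1 measured member of the clock list. The labels give no hour of sampling, so time of day and day of drought cannot be told apart for it.

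Further genes known by locus alone moved in both directions. AT4G33550 read 8.37 and 8.73 on day 4, against 5.96 and 6.74 on day 3, and rose by 2.20 (SE 0.21, adjusted p = 0.000319). AT3G53980 read 10.87 and 11.34 on day 4, against 9.09 and 9.92 on day 3, a rise of 1.60 (SE 0.23, adjusted p = 0.00312) whose call ended when the prior variance that limma shares across probe sets was made robust and set by the mean level (adjusted p = 0.104). In both genes the lower day 4 array was at least as far above the higher day 3 array as the replicates of day 3 were apart. AT5G59330, at a lower level, read 5.97 and 5.75 on day 4, against 4.93 and 4.92 on day 3, and rose by 0.94 (SE 0.12, adjusted p = 0.00162).

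AT2G45180 showed the largest named fall. It read 9.04 and 8.45 on day 4, against 11.24 and 10.92 on day 3. It stayed one of the brighter transcripts but fell by 2.33 (SE 0.18, adjusted p = 9.37e-05). AT5G48490 read 6.47 and 6.21 on day 4, against 7.28 and 7.12 on day 3, and fell by 0.87 (SE 0.12, adjusted p = 0.00228). Among the brightest calls, AT1G62500 fell by 0.68 (adjusted p = 0.00933) and AT1G48750 rose by 0.51 (adjusted p = 0.0300). The call of AT1G62500 ended without day 3 replicate 1 (adjusted p = 0.112) or day 4 replicate 2 (adjusted p = 0.0712). That of AT1G48750 ended without day 3 replicate 1 (adjusted p = 0.238), day 4 replicate 1 (adjusted p = 0.0779) or day 4 replicate 2 (adjusted p = 0.116). AT5G59330 and AT5G48490 were picked out after their values were seen.

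**Figure D3:**
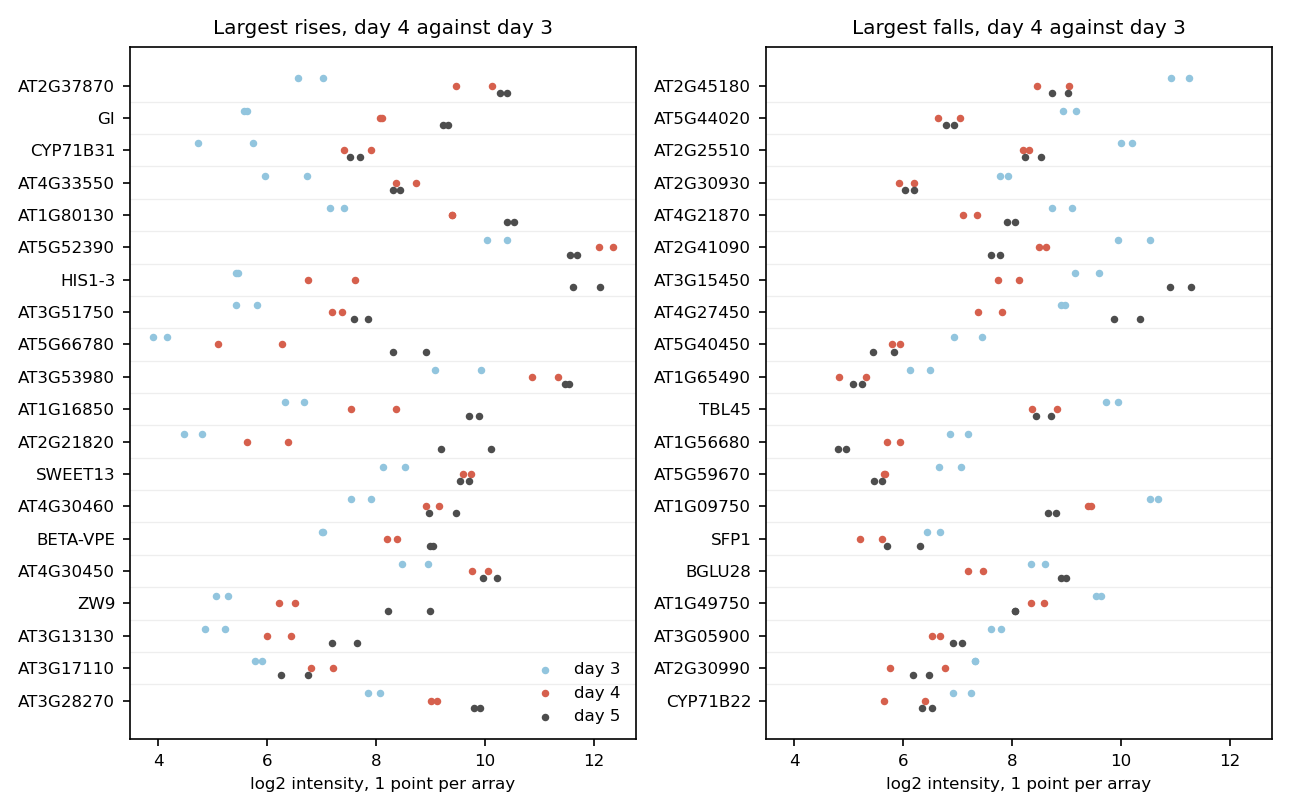
Each row is a gene, with its log2 intensity on the horizontal axis and 1 point per array, for the 20 named genes that rose most (left) and the 20 that fell most (right) between days 3 and 4. No gene shows overlap between the red day 4 points and the light blue day 3 points, as the choice of genes required. The dark day 5 points show HIS1-3 going on to higher levels while AT3G15450 and AT4G27450 turned upward.

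Other leading rises followed. AT1G80130 read 9.40 and 9.40 on day 4, against 7.16 and 7.42 on day 3, and rose by 2.11 (SE 0.11, adjusted p = 9.34e-06). AT5G52390 was bright on all 4 arrays, at 12.09 and 12.35 on day 4, against 10.04 and 10.40 on day 3, and rose by 2.00 (SE 0.14, adjusted p = 3.16e-05). In each of these genes the gap between the days was wider than the spread of either day. AT3G51750 rose by 1.66 (SE 0.14, adjusted p = 0.000199). AT1G47610 was named after its values were seen and was also a stable rise, of 1.09 (adjusted p = 0.000845). AT3G13130 and AT3G17110, also among the 20 largest rises, rose by 1.18 and 1.16 (limma adjusted p = 0.00518 and 0.00360). The AT3G13130 call ended without day 3 replicate 2 (adjusted p = 0.0617) or day 4 replicate 2 (adjusted p = 0.0530), and the AT3G17110 call without day 3 replicate 1 (adjusted p = 0.0558).

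Some transcripts tied to water loss rose on day 4, and those named had higher means on day 5. HIS1-3 (AT2G18050), a linker histone variant known to be induced by drought and abscisic acid, read 6.74 and 7.62 on day 4, against 5.47 and 5.43 on day 3. Both day 4 arrays were above both day 3 arrays but were themselves wide apart, and the rise was 1.74 (SE 0.23, adjusted p = 0.00237). That call ended with the robust prior set by the mean level (adjusted p = 0.0581). The day 5 mean was 11.87. COR15A (AT2G42540), a cold- and drought-induced protein that shields chloroplast membranes and a known DREB1A target, was already bright, at 12.37 and 12.19 on day 4, against 11.57 and 11.73 on day 3. It rose by 0.62 (SE 0.11, adjusted p = 0.00957), and its call ended without day 3 replicate 1 (adjusted p = 0.111).

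In the list for abscisic acid and dehydration, with 6 measured genes, HIS1-3 and COR15A were the 2 that rose, and none fell. Among all genes with a name, 2.27% rose and 2.19% fell, 4.46% together, and the counts for the lists below are read against these shares. The median log2 change of the list was 0.26, against 0.02 over all probe sets. The other 4 genes did not pass, with changes of 0.34 for COR47, a dehydrin, 0.18 for RD2, 0.15 for STZ, a zinc finger repressor, and 0.10 for COR15B.

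Of 10 measured genes of the LEA list, 3 rose and none fell, with a median change of 0.16. The dehydrin LTI30 (AT3G50970), a membrane-binding protein and DREB1A target, read 5.80 and 6.53 on day 4, against 5.01 and 5.14 on day 3. LEA4-5 (AT5G06760) read 8.18 and 8.79 on day 4, against 7.29 and 7.69 on day 3, and LEA18 (AT2G35300) read 6.67 and 6.89 on day 4, against 5.99 and 5.96 on day 3. In all 3 genes day 4 replicate 2 was the higher array, and the days did not overlap, as in every call. The rises were 1.09 for LTI30 (SE 0.20, adjusted p = 0.0111), 0.99 for LEA4-5 (SE 0.24, adjusted p = 0.0402) and 0.81 for LEA18 (SE 0.19, adjusted p = 0.0369). None was a stable call. The LTI30 call ended without day 3 replicate 1 (adjusted p = 0.115), day 3 replicate 2 (adjusted p = 0.0652) or day 4 replicate 2 (adjusted p = 0.0515). That of LEA4-5 ended without day 3 replicate 1 (adjusted p = 0.286), day 3 replicate 2 (adjusted p = 0.0916) or day 4 replicate 2 (adjusted p = 0.229), and with the robust prior set by the mean level (adjusted p = 0.249). That of LEA18 ended without any 1 of the 4 arrays of days 3 and 4 (adjusted p from 0.0670 to 0.189).

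Other transcripts also had higher means on day 5 than on day 4. AT5G66780 read 5.11 and 6.27 on day 4, against 3.91 and 4.17 on day 3, and its day 5 mean was 8.61. AT2G21820 read 5.64 and 6.39 on day 4, against 4.80 and 4.48 on day 3, with 9.66 on day 5. AT1G16850 read 7.54 and 8.37 on day 4, against 6.32 and 6.69 on day 3, with 9.80 on day 5. Day 4 replicate 2 was the higher array in each of these genes. The rises were 1.65 for AT5G66780, 1.37 for AT2G21820 and 1.45 for AT1G16850 (limma adjusted p = 0.0111, 0.0197 and 0.00443). The call of AT5G66780 ended without day 3 replicate 1 (adjusted p = 0.123), day 3 replicate 2 (adjusted p = 0.0605) or day 4 replicate 2 (adjusted p = 0.0502), the AT2G21820 call without day 3 replicate 1 (adjusted p = 0.0947), day 3 replicate 2 (adjusted p = 0.142) or day 4 replicate 2 (adjusted p = 0.141) and the AT1G16850 call without day 3 replicate 1 (adjusted p = 0.0716). With the robust prior set by the mean level AT5G66780 and AT2G21820 also missed the threshold (adjusted p = 0.125 and 0.144).

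ZW9 (AT1G58270), a TRAF-like protein gene, read 6.22 and 6.51 on day 4, against 5.06 and 5.28 on day 3, and rose by 1.19 (SE 0.21, adjusted p = 0.00884), and its day 5 mean was 8.61. The call ended without day 3 replicate 1 (adjusted p = 0.108) or day 4 replicate 2 (adjusted p = 0.0831). AT3G28270 read 9.01 and 9.12 on day 4, against 7.85 and 8.07 on day 3, and rose 2.14-fold (adjusted p = 0.000458, with an SE of 0.11 for the log2 change), with tight replicates and a stable call. AT3G05640 was also a stable rise, of 0.72 (adjusted p = 0.00228), and was picked out after its values were seen.

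Sugar transporter genes moved in both directions. SWEET proteins are channels that let sugars leave cells down their gradient, and tonoplast transporters such as TMT2 load sugar into the vacuole. SWEET13 (AT5G50800), a sucrose channel that acts in anthers, read 9.59 and 9.75 on day 4, against 8.13 and 8.53 on day 3. SWEET4 (AT3G28007), a hexose channel, read 10.59 and 10.64 on day 4, against 9.79 and 9.78 on day 3. TMT2 (AT4G35300) read 8.81 and 8.84 on day 4, against 8.20 and 8.29 on day 3. In each gene both day 4 arrays were above both day 3 arrays by more than the replicates of either day differed. SWEET13 rose by 1.34 (SE 0.14, adjusted p = 0.000486), SWEET4 by 0.83 (SE 0.10, adjusted p = 0.00102) and TMT2 by 0.58 (SE 0.10, adjusted p = 0.00810), and the TMT2 call ended without day 3 replicate 1 (adjusted p = 0.0940).

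SWEET10 (AT5G50790), a sucrose channel known to be switched on at the floral transition, went the other way, with 8.51 and 8.48 on day 4, against 9.43 and 9.12 on day 3. It fell by 0.78 (SE 0.12, adjusted p = 0.00415), and its call ended without day 3 replicate 1 (adjusted p = 0.0546). SWEET10 and SWEET13 are next to each other on chromosome 5 in the RefSeq gene order, with no annotated protein-coding gene between them. Of 20 measured genes of the sugar transport and starch list, 3 rose and 1 fell. The median change was 0.25, and 14 of the 20 changes were above 0. SWEET9, the nectary channel, had an uneven reading on day 3, at 8.11 and 8.03 on day 4, against 8.23 and 6.86 on day 3, and its change of 0.53 did not pass (adjusted p = 0.367). The alpha-amylase AMY1 changed by 0.47 and did not pass (adjusted p = 0.170).

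Starch synthesis begins with ADP-glucose pyrophosphorylase, whose large regulatory subunits are encoded by the APL genes. APL3 (AT4G39210), a form of sink tissues whose transcript is known to respond to sugar and abscisic acid, read 8.85 and 8.74 on day 4, against 8.04 and 7.89 on day 3. APL4 (AT2G21590) read 9.31 and 9.06 on day 4, against 8.16 and 8.35 on day 3. APL3 rose by 0.83 (SE 0.11, adjusted p = 0.00165) and APL4 by 0.93 (SE 0.12, adjusted p = 0.00162). Their day 5 means, 8.78 for APL3 and 9.24 for APL4, were close to those of day 4. Both genes were chosen after their values were seen.

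SFP1 (AT5G27350), a sugar transporter known to rise in ageing leaves, read 5.61 and 5.20 on day 4, against 6.44 and 6.68 on day 3. It fell by 1.16 (SE 0.19, adjusted p = 0.00654), and its call ended without day 3 replicate 2 (adjusted p = 0.0710) or day 4 replicate 2 (adjusted p = 0.0662). SFP1 is not a member of the sugar transport and starch list either. AT3G15450 and AT4G27450 showed a dip on day 4. AT3G15450 read 7.75 and 8.14 on day 4, against 9.60 and 9.16 on day 3, and fell by 1.44 (SE 0.18, adjusted p = 0.00145), and AT4G27450 read 7.38 and 7.81 on day 4, against 8.91 and 8.97 on day 3, and fell by 1.34 (SE 0.17, adjusted p = 0.00145). Both were higher on day 5 than on either other day, at means of 11.09 and 10.11. AILP1 (AT5G19140), named after its values were seen, was at 9.99 and 9.99 on day 4, against 10.49 and 10.44 on day 3, a fall of 0.48 (adjusted p = 0.0196). This call ended without any 1 of the 4 arrays of days 3 and 4 (adjusted p from 0.0510 to 0.149) and with scaling to the poly-A probe sets, which are controls for added bacterial transcripts (adjusted p = 0.084).

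A day 4 dip with a higher day 5 was also seen in BGLU28 (AT2G44460), a beta-glucosidase, with 7.20 and 7.47 on day 4, against 8.61 and 8.34 on day 3, and a day 5 mean of 8.95. Its fall was -1.14 (SE 0.13, adjusted p = 0.000802). ATG8E (AT2G45170), a ubiquitin-like protein that coats the membranes of autophagy, read 6.61 and 6.55 on day 4, against 7.38 and 7.18 on day 3, with 7.89 on day 5. It fell by 0.70 (SE 0.11, adjusted p = 0.00559), its call ended without day 3 replicate 1 (adjusted p = 0.0800), and it was the 1 of 11 measured autophagy genes that passed. The other 10 lay between -0.18 and 0.17. The 6 measured genes of the sugar starvation list lay between -0.36 and 0.26, with a median of 0.06, and none passed. The day 5 comparison shares the day 4 arrays, so a low day 4 value enters both steps and the dips were not tested as a pattern.

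**Figure D4:**
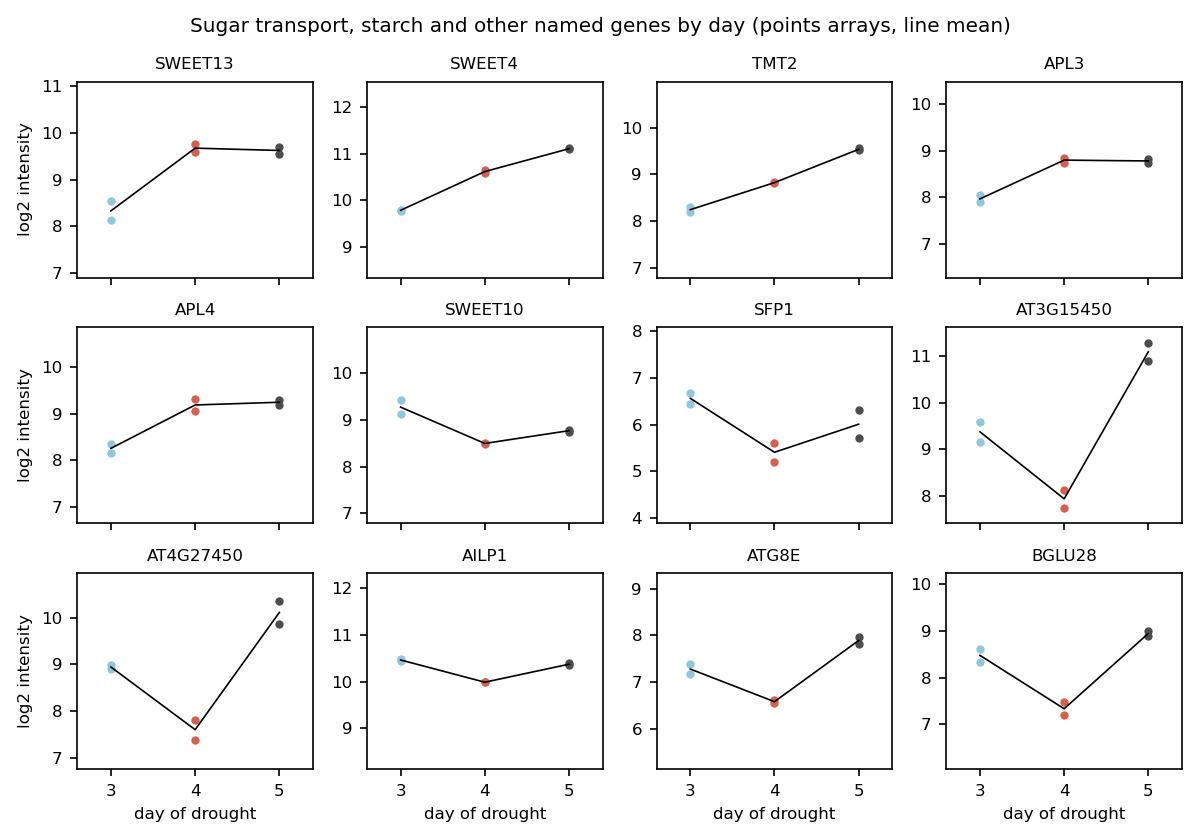
Log2 intensity against day of drought in 1 panel per gene, with a point per array and a line through the daily means, for sugar transport, starch, autophagy and beta-glucosidase genes, AILP1 and 2 genes known by locus alone. Every panel spans the same range of log2 units, SWEET13, SWEET4, TMT2, APL3 and APL4 rose on day 4, and SWEET10, SFP1, AT3G15450, AT4G27450, AILP1, ATG8E and BGLU28 fell.

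Genes best known from seeds were among the stable rises. BETA-VPE (AT1G62710), a vacuolar processing enzyme that matures storage proteins in seeds, read 8.39 and 8.20 on day 4, against 7.00 and 7.04 on day 3, and rose by 1.28 (SE 0.10, adjusted p = 0.000129). OLEO3 (AT5G51210), an oleosin of the coat of oil bodies, read 7.78 and 7.72 on day 4, against 6.80 and 6.73 on day 3, and rose by 0.98 (SE 0.11, adjusted p = 0.000813). GAMMA-VPE (AT4G32940), the related enzyme of vegetative vacuoles, read 9.69 and 9.79 on day 4, against 9.34 and 9.09 on day 3. Its change of 0.53 passed (SE 0.11, adjusted p = 0.0254), but the call ended without day 3 replicate 1 (adjusted p = 0.0542), day 3 replicate 2 (adjusted p = 0.169) or day 4 replicate 2 (adjusted p = 0.124). Its day 5 mean was 11.30. OLEO3 and GAMMA-VPE were chosen after their values were seen.

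Cell wall genes moved in both directions. Expansins loosen the contacts between cellulose and xyloglucan without cutting them, and the XTH enzymes cut and rejoin xyloglucan chains. Of 29 measured genes of the wall loosening list 5 rose and 3 fell, with a median of 0.15. EXPB1 (AT2G20750) read 7.76 and 7.63 on day 4, against 7.12 and 7.12 on day 3, and EXPB3 (AT4G28250) read 10.66 and 10.63 on day 4, against 10.14 and 10.15 on day 3. XTH19 (AT4G30290) read 6.26 and 6.01 on day 4, against 5.55 and 5.46 on day 3. The days were separate in each, but the gaps between them were modest.

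The rises were 0.58 for EXPB1 (SE 0.10, adjusted p = 0.00896), 0.50 for EXPB3 (SE 0.11, adjusted p = 0.0229) and 0.63 for XTH19 (SE 0.12, adjusted p = 0.0134). EXPA18 and EXPA21, both dim and named after their values were seen, rose by 0.44 and 0.45 (limma adjusted p = 0.0326 and 0.0444). None of these calls was stable. That of EXPB1 ended without day 3 replicate 1 (adjusted p = 0.0834) or day 3 replicate 2 (adjusted p = 0.0635), and the XTH19 call without day 3 replicate 1 (adjusted p = 0.0847), day 3 replicate 2 (adjusted p = 0.100) or day 4 replicate 1 (adjusted p = 0.0604). That of EXPB3 ended without any 1 of the 4 arrays of days 3 and 4 (adjusted p from 0.0658 to 0.149), that of EXPA18 without any 1 of the 4 arrays of days 3 and 4 (adjusted p from 0.0892 to 0.170), and the EXPA21 call without any 1 of the 4 arrays of days 3 and 4 (adjusted p from 0.0544 to 0.304). With quantile normalization repeated, EXPA18 and EXPA21 also missed the threshold (adjusted p = 0.0721 and 0.0939), as they did with cyclic loess (adjusted p = 0.0611 and 0.0704). EXPA21 did so too without either day 5 array (adjusted p = 0.0637).

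On the falling side, EXLA1 (AT3G45970), an expansin-like protein, read 8.01 and 7.86 on day 4, against 8.72 and 8.37 on day 3, and fell by 0.61 (SE 0.12, adjusted p = 0.0202). The test no longer passed without day 3 replicate 1 (adjusted p = 0.175) or day 4 replicate 2 (adjusted p = 0.116). XTH16 and XTH32 fell by 0.52 and 0.48 (limma adjusted p = 0.0461 and 0.0479). The XTH16 call ended without day 3 replicate 1 (adjusted p = 0.175), day 3 replicate 2 (adjusted p = 0.209) or day 4 replicate 2 (adjusted p = 0.209), without either day 5 array (adjusted p = 0.0644), with median centring (adjusted p = 0.0525) and with poly-A scaling (adjusted p = 0.0667). That of XTH32 ended without any 1 of the 4 arrays of days 3 and 4 (adjusted p from 0.116 to 0.200), and with median centring (adjusted p = 0.0725), repeated quantile normalization (adjusted p = 0.0605), cyclic loess (adjusted p = 0.0615) or poly-A scaling (adjusted p = 0.126).

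Of 29 measured genes of the pectin and cellulose list 4 rose and 1 fell, with a median of -0.06. CSLA03 (AT1G23480), of the family that makes the glucomannan backbone, read 5.65 and 5.45 on day 4, against 6.59 and 6.48 on day 3, and was the only stable call of the list, a fall of 0.99 (SE 0.12, adjusted p = 0.00128). The endoglucanase genes of glycoside hydrolase family 9 that rose were GH9B11, by 0.62, GH9B17, by 0.58, and GH9A4, by 0.54 (limma adjusted p = 0.0260, 0.0488 and 0.0443). GH9B17 was named after its values were seen. The remaining rise was that of AT4G02300, of the pectin methylesterase family, by 0.45 (adjusted p = 0.0314). The GH9B11 call ended without day 3 replicate 1 (adjusted p = 0.167), day 3 replicate 2 (adjusted p = 0.117) or day 4 replicate 2 (adjusted p = 0.130). Without any 1 of the 4 arrays of days 3 and 4 the other 3 rises missed the threshold, GH9B17 with adjusted p from 0.0532 to 0.294, GH9A4 from 0.0515 to 0.277 and AT4G02300 from 0.0593 to 0.171. AT4G02300 also missed it without either day 5 array (adjusted p = 0.0502), and both AT4G02300 and GH9B17 with repeated quantile normalization (adjusted p = 0.0975 and 0.0531) or cyclic loess (adjusted p = 0.0677 and 0.0567), GH9B17 with median centring too (adjusted p = 0.0549).

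Outside the lists, the wall-related genes TBL45 and ECS1 were stable calls. TBL45 (AT2G30010), of the family that acetylates wall polysaccharides, read 8.83 and 8.36 on day 4, against 9.95 and 9.72 on day 3, and fell by 1.24 (SE 0.16, adjusted p = 0.00165). ECS1 (AT1G31580), a small cell wall protein, read 10.27 and 10.24 on day 4, against 11.16 and 11.34 on day 3. The fall of 0.99 in ECS1 was several times its SE (SE 0.10, adjusted p = 0.000532), and it was the largest among the 5 brightest named falls. AT1G57590, known by locus alone, read 6.69 and 6.69 on day 4, against 5.59 and 5.67 on day 3, and rose by 1.06 (SE 0.10, adjusted p = 0.000287).

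Other genes known by locus alone moved in both directions. AT1G48100 read 9.75 on both day 4 arrays, against a mean of 9.04 ± 0.07 on day 3 (SD, n = 2), and rose by 0.71 (SE 0.11, adjusted p = 0.00422), while AT3G62110 read 8.14 and 7.86 on day 4, against 8.96 and 8.79 on day 3, and fell by 0.87 (SE 0.12, adjusted p = 0.00277). The genes AT4G30460 and AT4G30450, neighbours on chromosome 4, rose together. AT4G30460 read 8.91 and 9.16 on day 4, against 7.53 and 7.90 on day 3, a rise of 1.32 (SE 0.17, adjusted p = 0.00182), and AT4G30450 read 9.76 and 10.06 on day 4, against 8.47 and 8.95 on day 3, a rise of 1.20 (SE 0.16, adjusted p = 0.00262). AT4G18280 rose by 0.94 (adjusted p = 0.000630). AT1G57590, AT1G48100, AT3G62110 and AT4G18280 were named after their values were seen.

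**Figure D5:**
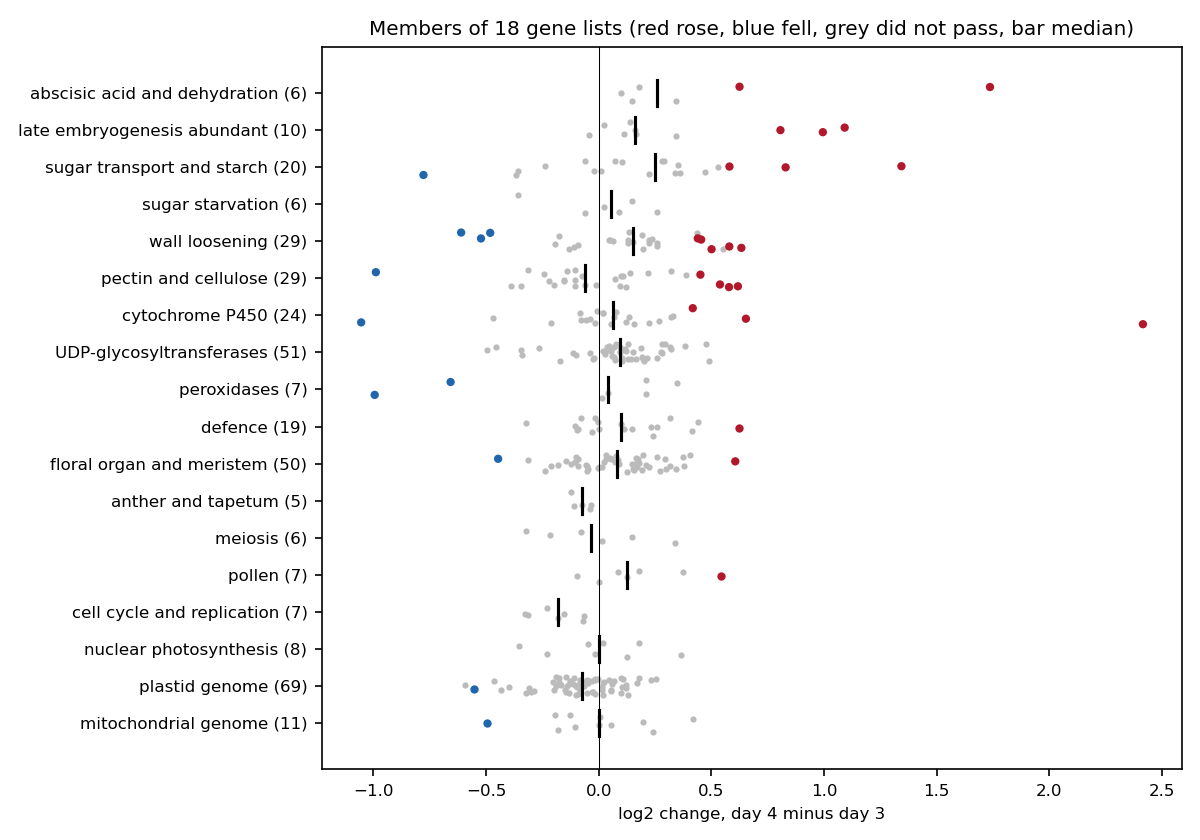
Log2 change, day 4 minus day 3, of each measured gene of selected lists, with the number of measured genes in brackets, red for genes that rose, blue for genes that fell, grey for genes that did not pass and a black bar at the list's median. Most genes are grey and lie near 0 in every list with more than 10 measured genes.

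Cytochrome P450 enzymes insert oxygen into hormones, lipids and defence compounds. Members of the CYP71B subfamily made up all calls of the P450 list, and the share of that subfamily among the measured genes was not counted. Of 24 measured genes 3 rose and 1 fell, with a median of 0.06. CYP71B31 (AT3G53300) read 7.41 and 7.91 on day 4, against 5.75 and 4.73 on day 3. Its day 3 replicates were wide apart, yet both lay below both day 4 arrays, and the rise was 2.41 (SE 0.26, adjusted p = 0.000696). CYP71B26 (AT3G26290) read 8.68 and 8.70 on day 4, against 7.97 and 8.10 on day 3, and rose by 0.65 (SE 0.11, adjusted p = 0.00814), while CYP71B22 (AT3G26200) read 5.65 and 6.41 on day 4, against 7.24 and 6.92 on day 3, and fell by 1.05 (SE 0.20, adjusted p = 0.0155).

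CYP71B37 rose by 0.42 (adjusted p = 0.0432). Only CYP71B31 was a stable call. The call of CYP71B26 ended without day 3 replicate 1 (adjusted p = 0.0994) or day 4 replicate 2 (adjusted p = 0.0517), that of CYP71B22 without day 3 replicate 1 (adjusted p = 0.159) or day 3 replicate 2 (adjusted p = 0.0526), and the CYP71B37 call without any 1 of the 4 arrays of days 3 and 4 (adjusted p from 0.0542 to 0.271). CYP71B37 also missed the threshold without either day 5 array (adjusted p = 0.0671) and with the prior set by the mean level (adjusted p = 0.0564). Of 51 measured UDP-glycosyltransferase genes, which attach sugars to small molecules, none passed, and the median change was 0.09. Whether probe sets of such large families also bind related transcripts was not tested, beyond leaving out those that the array maker marks as cross-hybridising.

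Several of the largest falls were stable calls. AT5G44020 read 7.05 and 6.65 on day 4, against 9.17 and 8.93 on day 3. The fall was -2.20 on the log2 scale (SE 0.14, adjusted p = 2.73e-05), and the day 5 mean of 6.86 was close to day 4. AT2G41090 read 8.63 and 8.49 on day 4, against 10.54 and 9.94 on day 3, and fell by 1.68 (SE 0.17, adjusted p = 0.000424). AT4G21870 read 7.35 and 7.11 on day 4, against 9.10 and 8.74 on day 3, and fell by 1.69 (SE 0.14, adjusted p = 0.000114).

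AT2G25510, AT2G30930 and AT5G40450 fell by 1.84, 1.78 and 1.32 (limma adjusted p = 3.05e-05, 3.16e-05 and 0.00176). The day 4 arrays of AT2G25510 read 8.31 and 8.21, against 10.00 and 10.20 on day 3. In all 3 genes the day 5 mean lay nearer the day 4 than the day 3 mean, at 8.39, 6.11 and 5.64. AT3G05900 fell by 1.11 (adjusted p = 0.000458), and AT2G30990 by 1.06 (adjusted p = 0.0331). The AT2G30990 call ended without day 3 replicate 1 (adjusted p = 0.186), day 3 replicate 2 (adjusted p = 0.153) or day 4 replicate 2 (adjusted p = 0.0909), and with the robust prior set by the mean level (adjusted p = 0.0864).

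AT5G59670 read 5.66 and 5.65 on day 4, against 7.06 and 6.65 on day 3, and fell by 1.20 (SE 0.13, adjusted p = 0.000792). AT1G16260 read 5.74 and 5.79 on day 4, against 6.74 and 6.72 on day 3, and fell by 0.96 (SE 0.10, adjusted p = 0.000696). AT4G11900 fell by 1.01 (adjusted p = 0.00144) and AT5G45780 by 0.71 (adjusted p = 0.00258). AT1G49750 and AT1G33600 fell by 1.11 and 0.80 (limma adjusted p = 0.000430 and 0.00145). AT4G08850 read 5.70 and 5.84 on day 4, against 6.70 and 6.43 on day 3, and fell by 0.80 (adjusted p = 0.00438), but its call ended without day 3 replicate 1 (adjusted p = 0.0638). Except for AT5G59670 and AT1G49750 these genes were named after their values were seen.

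Class III peroxidases oxidise wall phenolics and make or use hydrogen peroxide in the wall. Of 7 measured genes none rose and 2 fell, with a median of 0.04. AT5G64120, PRX71 in the RefSeq table, read 4.62 and 4.55 on day 4, against 5.31 and 5.85 on day 3, and fell by 0.99 (SE 0.15, adjusted p = 0.00446), and AT5G66390, PRX72 there, read 4.32 and 4.30 on day 4, against 4.96 and 4.97 on day 3, and fell by 0.66 (SE 0.11, adjusted p = 0.00623). Both were dim, and on day 4 they were nearer to the trp controls than on day 3. The call of AT5G66390 ended without day 3 replicate 1 (adjusted p = 0.0654) or day 3 replicate 2 (adjusted p = 0.0530).

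AT1G56680 read 5.70 and 5.94 on day 4, against 6.86 and 7.18 on day 3, and fell by 1.20 (SE 0.13, adjusted p = 0.000733), with 4.88 on day 5. AT4G01700 fell by 0.76 (adjusted p = 0.0160) and AT2G43590 rose by 0.82 (adjusted p = 0.0232). The call of AT4G01700 ended without day 3 replicate 2 (adjusted p = 0.126) or day 4 replicate 2 (adjusted p = 0.102), and the AT2G43590 call without day 3 replicate 1 (adjusted p = 0.195), day 3 replicate 2 (adjusted p = 0.0697) or day 4 replicate 2 (adjusted p = 0.142). AT5G03350 read 7.38 and 6.92 on day 4, against 8.04 and 8.35 on day 3, and fell by 1.04 (SE 0.15, adjusted p = 0.00367), and its day 5 mean was lower again, at 5.25. Of 19 measured genes of the defence list only the plant defensin PDF2.5 passed, with a rise of 0.62 (adjusted p = 0.0161) whose call ended without day 3 replicate 1 (adjusted p = 0.146), day 3 replicate 2 (adjusted p = 0.0687) or day 4 replicate 2 (adjusted p = 0.0956). AT4G01700, AT2G43590 and AT5G03350 were named after their values were seen.

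AT1G09750 read 9.45 and 9.39 on day 4, against 10.67 and 10.53 on day 3, and fell by 1.18 (SE 0.11, adjusted p = 0.000246), with 8.74 on day 5. AT5G10770 fell by 0.79 (adjusted p = 0.00393), and its call ended without day 3 replicate 1 (adjusted p = 0.0612). SCPL34, a serine carboxypeptidase-like gene, fell by 0.81 (adjusted p = 0.00144). AT1G29660 and AT1G29670 are neighbours on chromosome 1. AT1G29660 read 5.74 and 5.82 on day 4, against 7.11 and 6.48 on day 3, and fell by 1.02 (SE 0.17, adjusted p = 0.00628), and AT1G29670 fell by 0.77 (adjusted p = 0.00465), a call that ended without day 3 replicate 1 (adjusted p = 0.0638). SHN3 (AT5G25390), a transcription factor that promotes wax and cutin formation, read 8.75 and 8.74 on day 4, against 8.19 and 8.12 on day 3, and rose by 0.59 (SE 0.10, adjusted p = 0.00842), and its call ended without day 3 replicate 1 (adjusted p = 0.0649) or day 3 replicate 2 (adjusted p = 0.0700). SHN3 was the 1 call among 3 measured genes of the wax and cutin list, whose changes ranged from 0.04 to 0.59. AT5G10770, SCPL34 and AT1G29670 were named after their values were seen.

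Genes of nitrogen, redox and amino acid metabolism gave a few changes, given here beside genes known by locus alone, for which no role is given. AT1G04770, known by locus alone, read 8.71 and 8.48 on day 4, against 7.54 and 7.60 on day 3, and rose by 1.03 (SE 0.11, adjusted p = 0.000598). MGL (AT1G64660), methionine gamma-lyase, which breaks methionine down, read 10.20 and 10.42 on day 4, against 9.41 and 9.56 on day 3, and rose by 0.82 (SE 0.11, adjusted p = 0.00305), and its call ended without day 3 replicate 1 (adjusted p = 0.0516). AT1G68570, also called NPF3.1, of the nitrate and peptide transporter family, read 11.45 and 11.59 on day 4, against 10.71 and 10.62 on day 3, and rose by 0.86 (SE 0.10, adjusted p = 0.00114). It was the 1 rise among 15 measured genes of the nutrient transport list. The 1 fall, that of AT1G27040 of the same family, was -0.59 (adjusted p = 0.0101), and its call ended without day 3 replicate 1 (adjusted p = 0.0899), day 3 replicate 2 (adjusted p = 0.0687) or day 4 replicate 2 (adjusted p = 0.0676).

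ALN, allantoinase, an enzyme that frees nitrogen from purines, fell by 0.92 (adjusted p = 0.0369), but the call ended without day 3 replicate 1 (adjusted p = 0.200), day 4 replicate 1 (adjusted p = 0.0591) or day 4 replicate 2 (adjusted p = 0.199) and with the robust prior set by the mean level (adjusted p = 0.0997). CuAO1 (AT1G62810), a copper amine oxidase that breaks down polyamines, was a stable rise of 0.68 (adjusted p = 0.00336). MSRB5 (AT4G04830), which repairs oxidised methionine in proteins, read 8.18 and 8.40 on day 4, against 9.12 and 9.02 on day 3, with 9.56 on day 5, and fell by 0.78 (SE 0.12, adjusted p = 0.00465). Its call ended without day 3 replicate 1 (adjusted p = 0.0670). AT1G79520 and AT4G17280, known by locus alone, rose by 0.80 and 0.86 (limma adjusted p = 0.00153 and 0.00187). AT1G04770, MGL, ALN, CuAO1, MSRB5, AT1G79520 and AT4G17280 were named after their values were seen.

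The named genes of hormones and cell division changed by less than 1, and none of their calls was stable. ARR15 (AT1G74890), a response regulator that cytokinin induces and that damps cytokinin signalling, read 7.52 and 7.29 on day 4, against 8.11 and 8.20 on day 3, and fell by 0.75 (SE 0.14, adjusted p = 0.0118), with 6.91 on day 5. The call ended without day 3 replicate 1 (adjusted p = 0.0834), day 3 replicate 2 (adjusted p = 0.0944) or day 4 replicate 2 (adjusted p = 0.0909). GH3.3 (AT2G23170), which inactivates auxin by joining it to amino acids, was the 1 of 16 measured auxin genes that passed, with a fall of 0.55 (adjusted p = 0.0278). That call ended without day 3 replicate 1 (adjusted p = 0.0716), day 3 replicate 2 (adjusted p = 0.181) or day 4 replicate 2 (adjusted p = 0.151). None of the 3 measured gibberellin receptor genes passed, at -0.38 for GID1A, -0.23 for GID1B and -0.12 for GID1C.

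HTR12 (AT1G01370), the histone H3 variant that marks centromeres, read 7.79 and 7.54 on day 4, against 8.11 and 8.17 on day 3, with 6.92 on day 5, and fell by 0.47 (adjusted p = 0.0372). POLA3 (AT5G41880), a subunit of the DNA primase that starts new strands, read 8.64 and 8.43 on day 4, against 9.09 and 9.10 on day 3, with 8.00 on day 5, and fell by 0.56 (adjusted p = 0.0150). TUB5, a beta-tubulin, fell by 0.55 (adjusted p = 0.0229). The HTR12 call ended without day 3 replicate 1 (adjusted p = 0.164), day 3 replicate 2 (adjusted p = 0.176) or day 4 replicate 2 (adjusted p = 0.181), without either day 5 array (adjusted p = 0.0532) and with poly-A scaling (adjusted p = 0.0912). The POLA3 call ended without day 3 replicate 1 (adjusted p = 0.111), day 3 replicate 2 (adjusted p = 0.0928) or day 4 replicate 2 (adjusted p = 0.0922), and the TUB5 call without day 3 replicate 1 (adjusted p = 0.151), day 3 replicate 2 (adjusted p = 0.110) or day 4 replicate 2 (adjusted p = 0.129). The 7 measured genes of the cell cycle and replication list all had a change below 0, from -0.33 to -0.06 with a median of -0.18, but none passed. Of 7 measured genes of the histone list HIS1-3 rose and HTR12 fell, with a median of -0.14. ARR15, POLA3 and TUB5 were named after their values were seen.

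Few of the measured genes of flower formation were called. Of 50 measured genes of the floral organ and meristem list 1 rose and 1 fell, with a median of 0.08. These shares, 2.0% each, were near the 2.27% and 2.19% of all genes with a name. Of the 20 flower bud markers of the tissue check 6 were measured, and AP1, AP3, PI, AG and LFY were not among them. ALC (AT5G67110), a transcription factor of the zone where the fruit opens, read 9.53 and 9.68 on day 4, against 9.17 and 8.83 on day 3, and rose by 0.61 (SE 0.13, adjusted p = 0.0254), and its call ended without day 3 replicate 2 (adjusted p = 0.171) or day 4 replicate 2 (adjusted p = 0.135). JAG (AT1G68480), which keeps cells dividing at the tips of growing organs, read 5.45 and 5.39 on day 4, against 5.78 and 5.96 on day 3, and fell by 0.45 (SE 0.10, adjusted p = 0.0361). This call ended without any 1 of the 4 arrays of days 3 and 4 (adjusted p from 0.0677 to 0.201), without either day 5 array (adjusted p = 0.0534), with the prior set by the mean level (adjusted p = 0.0717), with that prior made robust (adjusted p = 0.0636) and with poly-A scaling (adjusted p = 0.0943).

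The gene list for anther and tapetum, which differs from the markers used for the tissue check, had 5 measured genes, ROXY1, ROXY2, AMS, SPL and EMS1. None passed, and their changes lay between -0.12 and -0.03. The marker AT5G07230 changed by 0.20 and did not pass (adjusted p = 0.431). None of the 6 measured meiosis genes did, with a range from -0.32 to 0.34. Of 7 measured pollen genes 1 rose, ANX2, a receptor kinase that keeps pollen tubes intact, by 0.54 (adjusted p = 0.0309), and its call ended without any 1 of the 4 arrays of days 3 and 4 (adjusted p from 0.0514 to 0.192). The 8 measured nuclear photosynthesis genes had a median of 0.00 and no call.

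Genes carried by the organelles gave few calls. Of 69 plastid genes none rose and 1 fell, or 1.45%, and their median change was -0.08. The fall was that of ndhK, a subunit of the plastid NADH dehydrogenase-like complex, by 0.55 (adjusted p = 0.0127), and its call ended without day 3 replicate 1 (adjusted p = 0.131) or day 4 replicate 2 (adjusted p = 0.0710) and with poly-A scaling (adjusted p = 0.0506). Of 11 mitochondrial genes 1 fell, nad9, a subunit of respiratory complex I, by 0.49 (adjusted p = 0.0439). The nad9 call ended without day 3 replicate 1 (adjusted p = 0.297), day 3 replicate 2 (adjusted p = 0.0735) or day 4 replicate 2 (adjusted p = 0.206), without either day 5 array (adjusted p = 0.0599) and in 4 other settings (adjusted p from 0.053 to 0.11). On the nuclear chromosomes the share called lay between 4.15% and 5.22%.

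Among the 5 brightest named rises and the 5 brightest named falls, ECS1 had the largest change, and the others lay below it in size. AT1G13930 read 12.39 and 12.54 on day 4, against 11.94 and 12.00 on day 3, and rose by 0.49 (adjusted p = 0.0209). AT2G21130 read 11.88 and 11.81 on day 4, against 11.42 and 11.34 on day 3, and rose by 0.47 (adjusted p = 0.0237), and AT5G62210 rose by 0.50 (adjusted p = 0.0223). On the other side scpl25, a serine carboxypeptidase-like gene, read 10.78 and 10.70 on day 4, against 11.26 and 11.22 on day 3, and fell by 0.50 (adjusted p = 0.0190). None of the calls of AT1G13930, AT2G21130, AT5G62210 and scpl25 was stable. That of AT1G13930 ended without day 3 replicate 1 (adjusted p = 0.152), day 3 replicate 2 (adjusted p = 0.0911) or day 4 replicate 2 (adjusted p = 0.109), that of AT2G21130 without any 1 of the 4 arrays of days 3 and 4 (adjusted p from 0.0704 to 0.142), and the AT5G62210 call without any 1 of the 4 arrays of days 3 and 4 (adjusted p from 0.0672 to 0.174). That of scpl25 ended without day 3 replicate 1 (adjusted p = 0.139), day 3 replicate 2 (adjusted p = 0.0911) or day 4 replicate 2 (adjusted p = 0.0926) and with poly-A scaling (adjusted p = 0.0632).

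Of the 38 gene lists with a measured gene, 17 held no call. Except for the UDP-glycosyltransferases, with 51, the lists without a call had from 1 to 10 measured genes. With 4.46% of named genes called, the lack of a call in lists that small says little. Other lists held a single call. Of 15 measured antioxidant and glutathione transferase genes, GSTF4 fell by 0.57 (adjusted p = 0.0278), a call that ended without day 3 replicate 1 (adjusted p = 0.108), day 3 replicate 2 (adjusted p = 0.169) or day 4 replicate 2 (adjusted p = 0.147). TIL, a lipocalin that protects membranes under heat and cold, rose by 0.54 (adjusted p = 0.0122), and was named after its values were seen. The test no longer passed without day 3 replicate 1 (adjusted p = 0.118), day 3 replicate 2 (adjusted p = 0.0546) or day 4 replicate 2 (adjusted p = 0.0689). ATMYC1, which shapes epidermal cells and shares a family with a jasmonate transcription factor, was the 1 of 5 measured jasmonate list genes that passed. It fell by 0.58 (adjusted p = 0.0150), a call that ended without day 3 replicate 1 (adjusted p = 0.0758), day 3 replicate 2 (adjusted p = 0.113) or day 4 replicate 1 (adjusted p = 0.0617).

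Neighbouring genes were both called in 18 of 5814 adjacent pairs of protein-coding genes with both tested, or 0.310%. In 12 pairs the genes moved the same way, 3 pairs up and 9 down, and in 6 they moved apart. Among all genes with a name 4.46% were called, and how many such pairs unrelated calls would give was not computed. Among the pairs that fell together, AT1G65490 fell by 1.24 and AT1G65500 by 0.98, both as stable calls (limma adjusted p = 0.00228 and 0.00180). AT2G45180, the leading fall, lies next to ATG8E. Among the pairs that moved apart, AT4G33550 rose by 2.20 while its neighbour AT4G33560 fell by 0.52 (adjusted p = 0.0159). The AT4G33560 call ended without day 3 replicate 1 (adjusted p = 0.128), day 3 replicate 2 (adjusted p = 0.0786) or day 4 replicate 2 (adjusted p = 0.0900) and with poly-A scaling (adjusted p = 0.056). Order was read from the RefSeq gene table, and the pairs were named after their values were seen.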

How the data were processed

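The authors made the deposited log2 values, 1 per probe set and array, with RMA, run through affy per the submitters' processing notes. Neither a version nor the set of arrays normalized jointly is given in the sources used here. RMA includes quantile normalization, which hides a shift common to most transcripts, and the depth of an array is its signal: values lay between 2.98 and 14.74 and array medians between 7.41 and 7.46.

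From these values, 64 control probe sets were left out and 22746 of 22810 were tested, with no filter on low values. Genes were named through the platform annotation: 13513 probe sets carried exactly 1 gene (11933 of them only a locus), 503 several and 8730 none here, and only the first were named. The RefSeq gene table of TAIR10.1 held 13436 of them. Since no source used here names the build of that annotation, coordinates are left out.

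A linear model of the 6 arrays with a term for day was fitted in limma 3.58.1 under R 4.3.3, using lmFit, contrasts.fit and eBayes. It had 3 residual degrees of freedom and a prior of 8.01. P-values are two-sided, with Benjamini-Hochberg adjustment across the whole set tested and a threshold of 0.05, and the median SE of a change was 0.11. The model was tested on simulated arrays with independent noise and known changes on day 4. These held no day 5 change and no effect shared by an array. They do not show how far the calls made here can be trusted. Named genes are the 20 largest rises and 20 largest falls among calls with 1 gene name and no overlap between days, the 5 brightest in each direction, up to 3 called members with the smallest p per list and direction, and genes said to be named after their values were seen. For 43 gene lists, 38 with at least 1 measured gene and 468 genes in all, a gene with several probe sets was represented by the one with the highest mean. The comparison, the lists and the rule were chosen with earlier results of these data known. Members that the files give by locus alone were put on lists from general knowledge, not from an annotation. A planned search of promoters for short motifs was not run, because no promoter sequence was used here. The alternatives tried were other priors, other scalings, filters on dim probe sets and on those that cross-hybridise, a block for the replicate number, each array left out, a fit of only days 3 and 4, a 2-fold minimum and unadjusted p-values.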

Additional observations from a re-analysis of the deposited data

How the results depend on the processing

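Of the 1125 calls (564 rises, 561 falls), 93 (52 and 41) were at least 2-fold, and 4637 (2546 and 2091) had an unadjusted p under 0.05, a count added after seeing the data. Leaving out each array in turn gave 227 to 1033 calls, 113 to 473 rises and 114 to 571 falls, and fewer arrays were then fitted. Scaled to the poly-A controls, whose use in equal amounts the labels do not state, 941 passed, with 301 falls and 68.0% rises against 50.1%, and 841 of the 1125 were kept. Median centring gave 57.1% rises. A prior set by the mean level gave 1547 calls, and the same prior made robust, also added after seeing the data, 1572. A block for the replicate number gave 1310. The correlations of the differences between replicates were 0.06, 0.00 and 0.10 for days 4 and 3, 5 and 3, and 5 and 4. Whether the replicate numbers mark samples handled together was not tested. Of the 40 largest named changes, 40 passed in most settings, 33 without day 3 replicate 1, 34 without day 3 replicate 2, 34 without day 4 replicate 2, and 35 with the robust prior set by the mean level. Filtering the dimmest 30% removed 1 of them. No named change reversed in any setting. Since days did not overlap in any named gene, leaving out an array could not reverse one, and only the other scalings could have.

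Counts of list members also moved. The P450 list had 4 calls, 2 with a 2-fold minimum, 8 at an unadjusted p and 1 to 4 with each array left out. The LEA list had 3, 1 with a 2-fold minimum and 0 to 3 with each array left out. The pectin and cellulose list had 5, 3 with repeated quantile normalization, 3 with cyclic loess, 0 with a 2-fold minimum, 11 at an unadjusted p and 1 to 4 with each array left out. The sugar transport and starch list had 4, 1 with a 2-fold minimum and 11 at an unadjusted p. The wall loosening list had 8, 5 with repeated quantile normalization, 5 with cyclic loess, 0 with a 2-fold minimum and 0 to 6 with each array left out. The cause of these shifts was not tested. In the dimmest group of probe sets, whose means reach down to the level of the trp controls, 77 rose and 19 fell, and the part of low signal in that was not tested.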
